A study of Homo sapiens with 27 samples.

Results

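RNA sequencing compared SKBR3 cells in which FOXA1 had been silenced with SKBR3 cells given a control siRNA. SKBR3 is an established human breast cancer line with an amplified ERBB2 gene, which encodes the receptor HER2, and it lacks appreciable ESR1, the gene of the estrogen receptor. The cells were reverse transfected with an siRNA pool against FOXA1 (siFOXA1) or with non-silencing siRNA (siNS), and total RNA was taken after 48 h. The comparison rests on 6 of the 27 libraries of the study, 3 for siFOXA1 and 3 for siNS, chosen by line and siRNA alone. The other libraries are the same siRNAs in T47D, an estrogen receptor positive luminal line, and in MDA-MB-453, a further breast cancer line, together with an siRNA pool against TLE3 (siTLE3) in all 3 lines. All groups carry a transfected siRNA, so no untreated cells are among them. The labels call the 3 libraries of a group biological replicates without saying how they were separated, so p-values measure the spread between these samples. Silencing with siRNA is transient and partial, and each condition was read at 1 time in 1 line.

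FOXA1 is a forkhead transcription factor that binds nucleosomal DNA and opens it for other factors, and it is therefore called a pioneer factor. In the luminal epithelium of the breast it works with GATA3 and with steroid hormone receptors to keep luminal genes active. TLE proteins of the Groucho family are corepressors without DNA binding of their own, which are brought to DNA by partners such as FOXA factors. The comparison asks which genes of an ERBB2-amplified line change when FOXA1 is silenced.

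The 6 libraries held 18184521 to 23816664 counted reads, and 14361 of the 23009 listed genes had enough reads to be tested. One library, siNS 3, stood apart from its group. Each library was set against the mean of the other 2 of its group, and the log2 differences of siNS 3 had an SD of 0.616 over genes, against 0.305 to 0.430 for the other libraries. The difference followed gene length, with a median of 0.38 on the log2 scale for genes up to 1 kb and -0.62 for genes over 6 kb. Its 20 most abundant genes took 11.1% of its reads, against 8.62% to 8.89% in the other libraries. The biological coefficient of variation of the comparison was 0.165 with all 6 libraries and 0.0482 without siNS 3, and 0.164 to 0.190 when any other library was left out. Results are therefore given with all 6 libraries and again without siNS 3. A call is said to have held when it was made with all 6 libraries and in each of the 6 fits that leave out 1 of them.

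**Figure D1:**
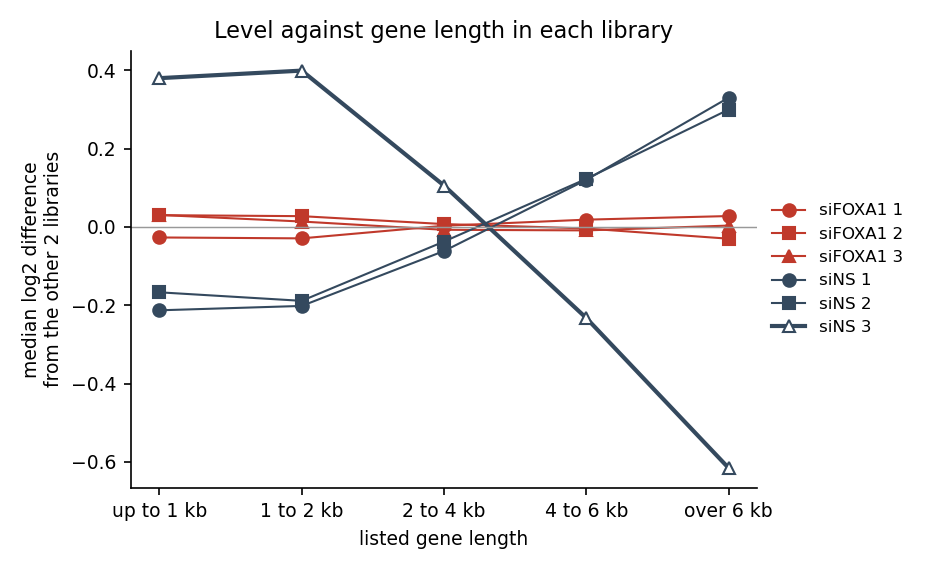
Median log2 difference in level between each library and the mean of the other 2 of its group (vertical axis) in 5 classes of listed gene length (horizontal axis). The siNS 3 library, drawn with open triangles, falls from 0.38 for the shortest class to -0.62 for the longest, siNS 1 and siNS 2 mirror it because siNS 3 is in their reference, and the 3 siFOXA1 libraries stay near 0.

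FOXA1 (ENSG00000129514, chr14:38059189-38069245, hg19, minus strand) was at 76.2, 80.6 and 78.3 CPM (counts scaled to the effective size of each library) in the siFOXA1 libraries and at 391.7, 382 and 334 CPM in the siNS libraries. The groups lay far apart, and the 3 silenced libraries differed little among themselves. FOXA1 fell by 2.24 (SE 0.10) on the log2 scale, with edgeR adjusted p = 5.55e-05, and the call held. FOXA2 and FOXA3, its relatives in liver and gut, had too few reads to be tested. TLE3 was at 109.9, 118 and 111 CPM under siFOXA1 and at 104, 109 and 106 CPM under siNS, a log2 difference of 0.08 (0.09) with edgeR adjusted p = 0.562. TLE1 and TLE2, close relatives of TLE3, differed by 0.23 (0.10) and 0.07 (0.17) and did not pass. TLE4 was low, at 2.37 to 4.23 CPM against 0.482 to 1.30 CPM, and rose by 1.95 (0.39). The edgeR adjusted p of TLE4 was 0.0123 with all 6 libraries and 0.0615 without siFOXA1 1, so its call did not hold.

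Across the genome, 1490 genes rose, 10.4% of those tested, and 1256 fell, 8.75% of those tested. A change of at least 2-fold was seen in 577 of the risen and 401 of the fallen genes. Without siNS 3, 3358 genes rose, 22.7% of the 14776 then tested, and 3317 fell, or 22.4%. Of the 2746 genes called with all 6 libraries, 2738 were called in the same direction without siNS 3. The call held with any library left out for 679 risen genes (4.73%) and 449 fallen genes (3.13%), and 418 and 261 of these changed at least 2-fold. Among all tested genes the median log2 fold change was -0.00051. The counts of the gene lists below are read against these shares, 10.4% risen and 8.75% fallen with all 6 libraries and 22.7% and 22.4% without siNS 3. Longer genes were called as risen more often than short ones, at 12.6% of genes over 6 kb against 1.75% of genes up to 1 kb. The median log2 fold change ran from -0.15 to 0.13 over these length classes with all 6 libraries and from -0.05 to 0.02 without siNS 3.

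Among the genes whose call held, the largest rises were in keratins, a growth factor and membrane proteins. KRT5, the basal keratin that pairs with keratin 14, had 91, 131 and 85 reads in the siFOXA1 libraries and 0, 0 and 6 reads in the siNS libraries. All its siNS reads were in siNS 3, and the ratio of CPM was 50.8 with a 95% exact counting interval of 23.1 to 139.5, which covers counting error only. STAC2 (ENSG00000141750, chr17:37366789-37382125, hg19, minus strand), an adaptor of voltage-gated calcium channels, was at 259, 234 and 238 CPM under siFOXA1 and at 6.66, 4.62 and 5.79 CPM under siNS. It rose by 5.42 (0.16) with edgeR adjusted p = 1.23e-05. STAC2 lies in the same region of chromosome 17 as ERBB2 (chr17:37844167-37886679), and under siTLE3 it was at 3.26 to 6.56 CPM, within or below the range of siNS. KRT9, a keratin of palm and sole skin, went from 0.676, 1.01 and 2.10 CPM under siNS to 27.9, 31.8 and 30.7 CPM, a rise of 4.57 (0.32). ANXA1, which encodes the phospholipid-binding protein annexin A1, was at 13.8, 16.5 and 15.2 CPM against 1.21, 1.01 and 1.29 CPM and rose by 3.69 (0.17). COL5A2, a fibrillar collagen chain, was at 66.0, 64.04 and 56.0 CPM against 6.33, 7.22 and 3.73 CPM and rose by 3.43 (0.23).

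The other largest rises were in genes at under 1 CPM in every siNS library. Like KRT5, they met the minimum mean of 1 CPM over the 6 libraries only through their siFOXA1 levels. A gene this low under siNS could enter the ranking only by rising. The growth factor PDGFA rose by 4.28 (0.32), the water channel AQP1 by 3.91 (0.24) and the monocarboxylate transporter SLC16A1 by 3.82 (0.30). The estrogen sulfotransferase SULT1E1 rose by 3.50 (0.36), the calcium-binding CABP7 by 3.62 (0.41), the inositol phosphate kinase IP6K3 by 3.55 (0.58) and FAM25C by 3.74 (0.45). In the siNS libraries together SULT1E1 had 13 reads, CABP7 10, IP6K3 14 and FAM25C 9. FAM25C belongs to a family of near-identical copies, so its reads may be shared among them. Under siTLE3, which is read against the same siNS libraries, PDGFA was at 2.40 to 3.56 CPM and SLC16A1 at 2.94 to 4.47 CPM, both above their siNS ranges of 0.145 to 0.433 and 0.335 to 0.867 CPM. Among the 12 largest rises and the 12 largest falls, which were chosen for held calls and groups without overlap, leaving out siNS 3 moved the log2 fold change of KRT5 to 9.65, with no control reads left, and that of IP6K3 to 4.71. It moved the other genes by at most 0.58.

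Transporter genes were among the largest falls. ABCC11 (ENSG00000121270, chr16:48200821-48281479, hg19, minus strand), an efflux transporter of apocrine glands, was at 7.11, 8.03 and 7.24 CPM under siFOXA1 and at 129, 125 and 106 CPM under siNS. It fell by 4.004 (0.13) with edgeR adjusted p = 1.37e-05, and the groups were more than an order of magnitude apart. Its neighbour ABCC12, a related transporter gene on the same strand, had 3 reads in all siFOXA1 libraries and 206 in the siNS libraries. The siNS to siFOXA1 ratio of CPM was 69.2 for ABCC12, with a 95% exact counting interval of 23.3 to 338. PKD1L1, a polycystin-family gene, had 2 and 150 reads, a ratio of 75.5 with an interval of 20.6 to 629. ATP8B2, a phospholipid flippase, was at 2.66, 1.70 and 2.55 CPM against 35.8, 32.5 and 25.6 CPM and fell by 3.77 (0.22). RND1, an atypical small GTPase that loosens adhesion, was at 2.71, 3.31 and 2.28 CPM against 24.1, 21.2 and 29.1 CPM and fell by 3.16 (0.19). LDLRAD4, an inhibitor of TGF-beta signalling, fell by 3.11 (0.26) and the kinase LRRK2 by 3.20 (0.37). The prostatic acid phosphatase ACPP fell by 3.79 (0.40), the maltase-glucoamylase MGAM by 3.77 (0.42), MS4A7 by 4.08 (0.46) and the integrin ITGAL by 3.17 (0.38). USP41, a near copy of USP18 with which it may share reads, fell by 3.52 (0.40). In the siFOXA1 libraries together ACPP had 24 reads, MGAM 17, MS4A7 11, ITGAL 14 and USP41 14. These genes, ABCC12, PKD1L1 and LRRK2 averaged under 1 CPM under siFOXA1 and met the minimum mean of 1 CPM only through siNS.

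**Figure D2:**
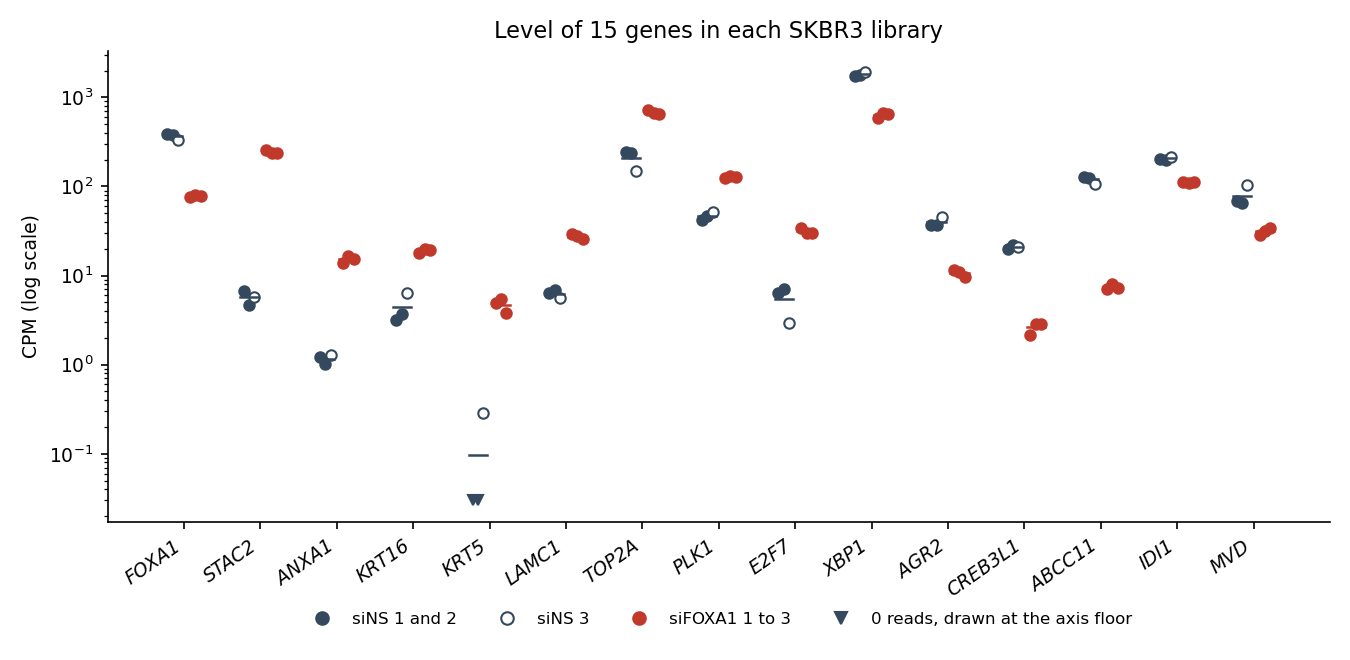
Level in CPM (log scale) of 15 genes in each SKBR3 library, with bars at the group means. Red points are the 3 siFOXA1 libraries, filled dark points siNS 1 and siNS 2 and open points siNS 3. The genes were chosen among called genes, some for groups without overlap, so the separation seen here is selected. STAC2 was at 234 to 259 against 4.62 to 6.66 CPM and ABCC11 at 7.11 to 8.03 against 106 to 129 CPM.

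Several transcription factors of luminal cells fell, and others rose. Of 22 tested luminal transcription factors 4 fell, 6 rose and 12 did not pass, with a median log2 fold change of -0.06, and without siNS 3 the counts were 9 and 6. CREB3L1, a membrane-bound factor that drives secretory gene expression, was at 2.17, 2.86 and 2.86 CPM under siFOXA1 and at 19.7, 22.2 and 20.8 CPM under siNS, and fell by 2.98 (0.16). XBP1, a factor of secretory cells, was at 582, 661 and 646 CPM against 1745, 1773 and 1917 CPM and fell by 1.52 (0.10) with edgeR adjusted p = 0.000139. Both genes were separated between the groups by several times the spread within them. SPDEF, an ETS factor of luminal and goblet cells, was at 195, 207 and 204 CPM against 377, 393 and 602 CPM and fell by 1.18 (0.18), or by 0.94 without siNS 3. SOX9, a factor of progenitor and duct cells, rose by 1.31 (0.12) from 15.5, 16.9 and 14.1 CPM to 34.9, 41.7 and 38.8 CPM. TFAP2B rose by 1.06 (0.12) and KLF5 by 0.84 (0.14). GATA3, the partner of FOXA1 in luminal cells, was at 95.3, 98.8 and 93.0 CPM against 112, 111 and 114 CPM. Its log2 difference of -0.23 (0.09) did not pass with all 6 libraries (edgeR adjusted p = 0.12) and passed without siNS 3 (edgeR adjusted p = 0.0011).

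Among the nuclear receptors, ESR1 was at 0.597 to 1.82 CPM against 0.622 to 0.963 CPM and did not pass, and PGR had too few reads to be tested. Of 22 tested 3 rose and 3 fell (6 and 3 without siNS 3), shares near those over all genes. Among the fallen was the orphan receptor NR2F2, which fell by 0.72 (0.18) in a call that did not hold.

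Genes of the luminal surface and of secretion fell more often than they rose. Of 25 tested, 12 fell, 1 rose and 12 did not pass, with a median of -0.34, and without siNS 3 the counts were 15 fallen and 6 risen. AGR2, a disulfide isomerase needed for mucin secretion, was at 11.4, 10.9 and 9.56 CPM against 36.8, 36.9 and 45.8 CPM and fell by 1.91 (0.14). The trefoil factor TFF3, a mucus peptide, was at 0.814, 1.201 and 0.804 CPM against 3.33, 3.42 and 4.83 CPM and fell by 2.02 (0.28). The lipid transfer gene STARD10 fell by 1.38 (0.19), or by 1.12 without siNS 3, and the melanophilin gene MLPH by 1.15 (0.12). The simple keratins KRT8 and KRT18, at 5175 to 5304 and 770.1 to 843 CPM under siFOXA1, differed by -0.10 (0.16) and 0.10 (0.19) and did not pass. Without siNS 3 the values were 0.11 for KRT8, with the sign turned, and 0.36 for KRT18, and both passed (edgeR adjusted p = 0.0022 and 1.5e-07). LTF, the antibacterial lactoferrin, was the risen member, by 1.68 (0.39), in a call that did not hold.

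Apocrine and androgen-responsive genes split. Of 25 tested 8 fell and 4 rose, with a median of -0.11, and without siNS 3 the counts were 10 and 8 with a median of -0.00857. The secreted protein gene CRISP3 was at 3.42, 3.68 and 3.31 CPM against 22.4, 18.6 and 21.1 CPM and fell by 2.57 (0.14). HGD, of tyrosine breakdown, fell by 2.26 (0.21), the zinc-binding glycoprotein gene AZGP1 by 1.36 (0.15) and the prolactin-induced PIP by 2.31 (0.45), the last in a call that did not hold. ACSM1, an acyl-CoA synthetase gene of apocrine tumours, had 2 reads in all siFOXA1 libraries and 51 in the siNS libraries, a ratio of 25.7 in CPM (95% exact counting interval 6.75 to 218). The carnitine acetyltransferase CRAT rose by 1.31 (0.16) from 29.2, 29.5 and 42.9 CPM to 82.6, 85.2 and 83.8 CPM. Its controls did not reach the silenced libraries.

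Basal and myoepithelial genes rose. These mark the outer cell layer of the breast duct, and 12 of the 21 tested rose, 0 fell and 9 did not pass, with a median of 0.91 (17 risen and 1 fallen without siNS 3). Besides KRT5 and ANXA1, the stress keratin KRT16 was at 17.8, 19.996 and 19.1 CPM against 3.14, 3.66 and 6.41 CPM and rose by 2.11 (0.25). KRT17 rose by 2.04 (0.33), from 0.574 to 1.30 CPM under siNS to 3.22 to 3.799 CPM. Both keratins have pseudogenes of close sequence that may share reads with them. The caveolin CAV1, a coat protein of membrane pits, rose by 1.497 (0.17) and the hyaluronan receptor CD44 by 0.82 (0.11). TP63, the master factor of basal cells, had 88 reads in all siFOXA1 libraries and 25 in the siNS libraries and rose by 1.77 (0.45), in a call that did not hold. Per length, the mean level under siFOXA1 was 1.89 FPKM for KRT5, 6.98 FPKM for ANXA1 and 11.7 FPKM for KRT16.

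Most genes of squamous cells did not pass with all 6 libraries. Of 16 tested 3 rose, 1 fell and 12 did not pass, with a median of 0.16. Without siNS 3 the counts were 9 risen and 3 fallen with a median of 0.21, against 22.7% risen and 22.4% fallen over all genes. Involucrin (IVL), a protein of the cornified envelope, was at 46.6, 41.7 and 46.2 CPM against 9.90, 11.5 and 17.2 CPM and rose by 1.80 (0.20). KRT4, a keratin of wet stratified epithelia, was at 117, 116 and 104 CPM against 428, 411 and 552 CPM and fell by 2.04 (0.14) with edgeR adjusted p = 0.00015. The 2 genes thus moved in opposite directions by similar amounts.

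Adhesion and matrix genes included some of the most abundant rises. Of 19 integrin and laminin genes 8 rose and 2 fell, with a median of 0.40 (9 and 6 without siNS 3). The laminin chain LAMC1 was at 28.9, 27.6 and 25.7 CPM against 6.42, 6.84 and 5.60 CPM and rose by 2.12 (0.13), and LAMB1 rose by 1.38 (0.12) from 108 to 141 CPM to 325 to 342 CPM. ITGB1, the common beta chain of integrins, was at 169, 166 and 151 CPM against 63.9, 64.4 and 41.4 CPM and rose by 1.52 (0.18). ITGA5, the alpha chain of the fibronectin receptor, fell by 1.46 (0.17) from 21.9 to 31.4 CPM to 8.80 to 9.77 CPM. In the mesenchymal list 4 of 15 tested genes rose and 2 fell (4 and 3 without siNS 3), with the matrix protein THBS1 up by 1.47 (0.17), the cross-linking enzyme LOXL2 by 1.52 (0.12) and the repressor SNAI1 by 1.13 (0.15). Of 27 junction genes 4 rose and 1 fell (10 and 8 without siNS 3), with beta-catenin (CTNNB1) up by 1.05 (0.11), the plakophilin PKP1 by 1.40 (0.23) and cingulin (CGN) down by 0.82 (0.11).

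**Figure D3:**
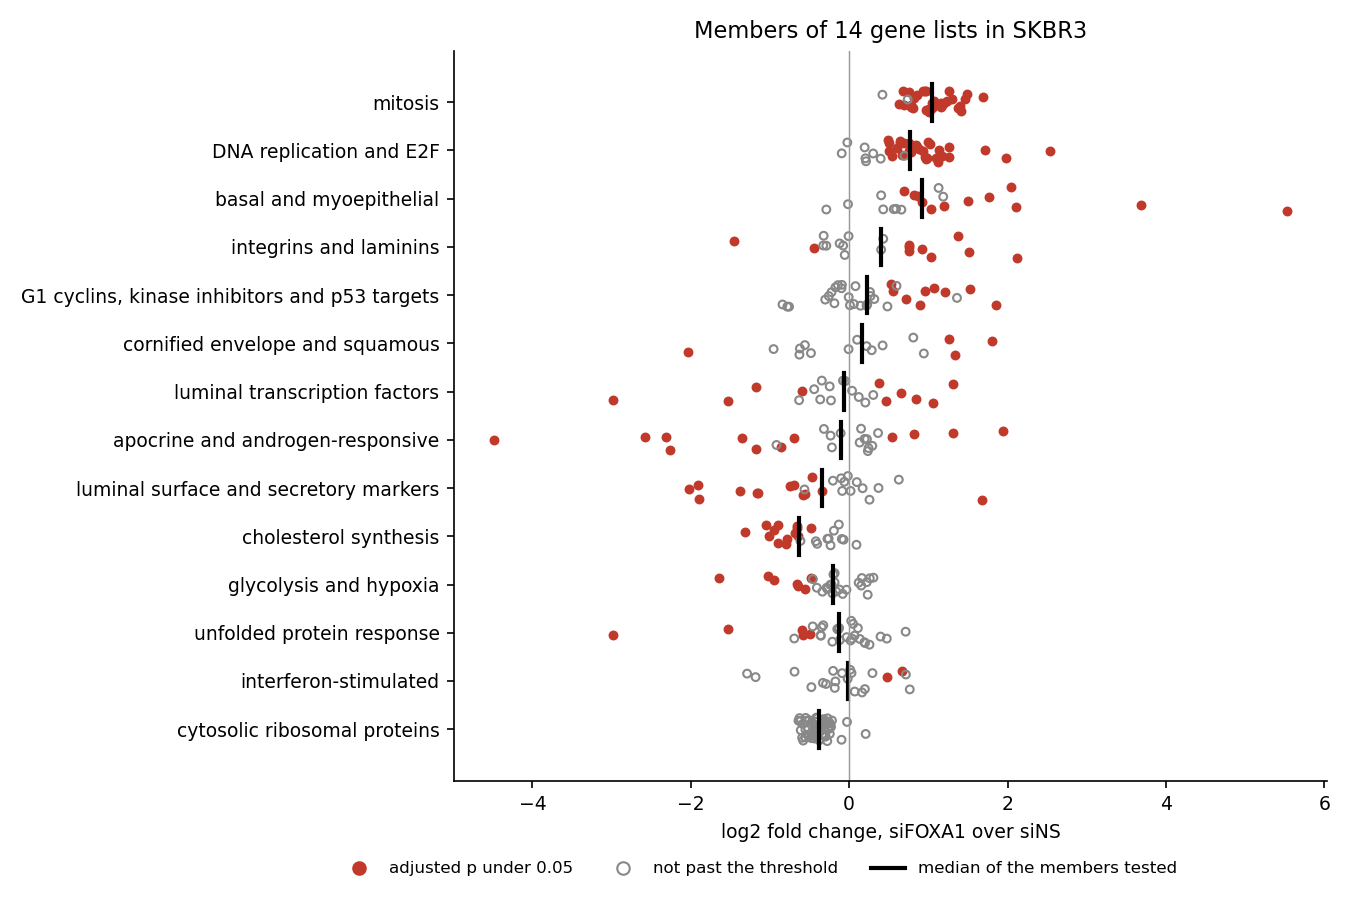
Log2 fold change of siFOXA1 over siNS (horizontal axis) for the tested members of 14 gene lists. Filled points passed at an edgeR adjusted p under 0.05, open points did not, and black bars are the medians, which run from 1.04 for mitosis to -0.63 for cholesterol synthesis.

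The list with the highest share of risen members was that of mitosis, the machinery that condenses and segregates chromosomes. Of 35 members tested 33 rose, 0 fell and 2 did not pass, with a median of 1.04, and without siNS 3 all 35 rose with a median of 1.01. The call held for 29 of them, and the 2 that did not pass, CCNB2 and CENPE, differed by 0.42 (0.14) and 0.74 (0.24). TOP2A, the topoisomerase that untangles chromosomes and encoded not far from ERBB2 on chromosome 17, was at 718, 664 and 650.3 CPM under siFOXA1 and at 245, 235 and 149 CPM under siNS. It rose by 1.69 (0.19), or by 1.49 without siNS 3, and the lowest silenced library was well above the highest control. PLK1, a kinase of mitotic entry, was at 126, 132 and 127 CPM against 41.5, 46.8 and 51.5 CPM and rose by 1.46 (0.11) with edgeR adjusted p = 0.00027. The proliferation marker MKI67 was at 371, 310.4 and 328 CPM against 171, 171 and 99.3 CPM and rose by 1.19 (0.21). CDK1, the mitotic kinase, rose by 1.16 (0.10), its cyclins CCNA2 and CCNB1 by 1.40 (0.14) and 0.75 (0.10), and FOXM1, a forkhead factor of mitotic genes, by 1.04 (0.12).

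Genes of DNA replication and of E2F factors, which switch them on before S phase, rose as well. Of 40 tested 32 rose, 0 fell and 8 did not pass, with a median of 0.77 (38 and 0 without siNS 3, median 0.83). E2F7, an E2F repressor, was at 34.2, 30.4 and 29.9 CPM against 6.33, 6.98 and 2.92 CPM and rose by 2.54 (0.28). UHRF1, which maintains DNA methylation at replication forks, was at 42.6, 41.3 and 40.2 CPM against 10.5, 11.8 and 9.04 CPM and rose by 1.99 (0.13). RRM2, a subunit of the enzyme that makes deoxynucleotides, was at 405, 396 and 398 CPM against 173, 168 and 158 CPM and rose by 1.26 (0.09). The replication helicase genes MCM7 and MCM10 rose by 0.93 (0.13) and 1.72 (0.14). PCNA and TK1 were among those that did not pass, at 0.21 (0.11) and -0.09 (0.16). Under siTLE3 the ranges were 411 to 556 CPM for TOP2A, 67.5 to 102 CPM for PLK1, 14.8 to 23.3 CPM for E2F7 and 246 to 293 CPM for RRM2, in each case above siNS and below siFOXA1.

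Regulators of G1 rose in part. Of 33 tested 9 rose and 0 fell, with a median of 0.22 (17 risen and 6 fallen without siNS 3). CDK2, the kinase of the G1 to S transition, was at 13.5, 13.99 and 11.3 CPM against 4.35, 3.13 and 3.25 CPM and rose by 1.85 (0.18). CDK6 rose by 1.53 (0.28), MYC by 0.90 (0.10) from 335 to 404 CPM to 658 to 695 CPM, and the inhibitor CDKN1A by 0.72 (0.13). Cyclin D1 (CCND1) was at 298, 301 and 298 CPM against 366, 371 and 275 CPM, a difference of -0.17 (0.13) that did not pass with all 6 libraries and was -0.31 without siNS 3, where it passed (edgeR adjusted p = 5.9e-07).

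The promoters of genes that moved together are shown because mitotic and replication genes are known to share short control elements. The windows are the 250 bases before the RefSeq start of each gene (GRCh38.p14), written 5′ to 3′ on the gene's strand, and both strands were searched. In the mitotic genes the capitals mark the cell cycle homology region TTTGAA and the CCAAT box, in the replication genes the E2F core TTCCCGC and its variants, which are TTGGCGC as well as TTCGCGC together with the form TTGCCGC. TOP2A (chr17:40417897-40418146, minus strand) and PLK1 (chr16:23678639-23678888, plus strand) were the mitotic genes with the largest held rise that hold both elements, E2F7 (chr12:77065570-77065819, minus strand) and UHRF1 (chr19:4909251-4909500, plus strand) the replication genes with the largest held rise that hold a core.
TOP2A: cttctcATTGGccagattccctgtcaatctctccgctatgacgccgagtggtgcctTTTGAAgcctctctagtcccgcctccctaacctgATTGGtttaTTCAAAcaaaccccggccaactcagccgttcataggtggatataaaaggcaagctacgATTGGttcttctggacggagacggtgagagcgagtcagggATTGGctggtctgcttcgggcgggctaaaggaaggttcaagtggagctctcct
PLK1: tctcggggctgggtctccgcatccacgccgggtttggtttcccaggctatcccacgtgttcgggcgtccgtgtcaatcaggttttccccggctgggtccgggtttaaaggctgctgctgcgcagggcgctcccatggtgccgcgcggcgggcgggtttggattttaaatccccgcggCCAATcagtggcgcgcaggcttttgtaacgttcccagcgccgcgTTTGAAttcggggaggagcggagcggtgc
E2F7: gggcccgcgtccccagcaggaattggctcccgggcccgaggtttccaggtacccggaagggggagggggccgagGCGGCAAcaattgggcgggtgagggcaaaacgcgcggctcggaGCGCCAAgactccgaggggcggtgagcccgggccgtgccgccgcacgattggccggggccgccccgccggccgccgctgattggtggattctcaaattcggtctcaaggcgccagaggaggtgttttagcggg
UHRF1: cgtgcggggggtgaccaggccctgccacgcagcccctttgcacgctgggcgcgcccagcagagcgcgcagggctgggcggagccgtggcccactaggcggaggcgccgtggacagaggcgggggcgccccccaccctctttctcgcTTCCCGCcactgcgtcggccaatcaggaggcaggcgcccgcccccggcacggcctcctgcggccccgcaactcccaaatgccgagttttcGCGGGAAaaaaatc
Of 28 mitotic genes with a RefSeq window, 14 held TTTGAA (50%) and 21 the CCAAT box (75.0%), against 8.05% and 35.1% of the 9479 tested genes with a window. An E2F core was in 19 of 34 replication genes (55.9%) and in 17.6% of the tested genes. Overlapping matches were counted. The forkhead letters TGTTTAC or TGTTTGC were in 11 of the 500 windows of held risen genes (2.20%), in 13 of the 309 of held fallen genes (4.21%) and in 3.998% of all 9479. These matches describe letters and say nothing of binding.

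Cholesterol synthesis genes fell together. Of 24 tested 13 fell, 0 rose and 11 did not pass, with a median of -0.63 (18 and 0 without siNS 3, median -0.57). MVD, which makes isopentenyl diphosphate, was at 28.9, 31.5 and 34.6 CPM against 67.9, 64.7 and 103 CPM and fell by 1.31 (0.19), or by 1.07 without siNS 3. MVK, the mevalonate kinase, fell by 1.01 (0.16), the isomerase IDI1 by 0.90 (0.09) and the epoxidase SQLE by 0.79 (0.10). The regulator SREBF2 differed by -0.13 (0.08) and did not pass, although it passed without siNS 3, at -0.17. The sterol element core TCACCCC was in 2 of 18 windows (11.1%) and in 4.68% of all tested genes, and MVK (chr12:109573544-109573793, plus strand) is shown with it in capitals.
MVK: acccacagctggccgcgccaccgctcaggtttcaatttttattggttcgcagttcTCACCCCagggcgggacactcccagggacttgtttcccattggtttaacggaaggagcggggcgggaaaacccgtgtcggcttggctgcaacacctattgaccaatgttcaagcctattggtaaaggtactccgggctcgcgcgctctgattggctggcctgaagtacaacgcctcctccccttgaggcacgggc

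Other metabolic lists were mixed. Of 29 genes of fatty acid synthesis and storage 4 rose and 5 fell (11 and 12 without siNS 3), with the elongase ELOVL5 down by 1.05 (0.13), the acetate-using ACSS2 down by 0.82 (0.09) and the arachidonate-using ACSL4 up by 1.34 (0.18). Of 29 genes of glycolysis and hypoxia 7 fell and 0 rose, with a median of -0.21 (15 fallen and 1 risen without siNS 3). NDRG1, a stress-induced gene, was at 99.3, 115 and 106 CPM against 325, 346 and 324 CPM and fell by 1.64 (0.10). The glucose transporter SLC2A1 fell by 0.65 (0.09) and the aldolase ALDOC by 1.03 (0.15). Of 30 genes of the unfolded protein response 5 fell and 0 rose, with CREB3L1 and XBP1 among the fallen, and without siNS 3 the counts were 11 fallen and 7 risen. The chaperone HSPA5 and the factors ATF4 and DDIT3 did not pass, at 0.13, 0.11 and -0.35. Of 68 cytosolic ribosomal protein genes 0 passed in either direction, with a median of -0.38, and without siNS 3 the median was -0.11 with 41 fallen and 1 risen. These are short genes, with a median length of 1842 bases, and siNS 3 lay above its group in genes up to 2 kb. With a trend on gene length removed from each library, 16 of the 68 fell and 0 rose. The part of gene length in the median was not tested. The amino acid list had 1 risen gene of 22 tested, SLC16A1, which carries monocarboxylates rather than amino acids. Its 1 fallen gene was SLC1A5, by 0.51 (0.08), and without siNS 3 the counts were 7 risen and 4 fallen. Of 13 mitochondrial genome genes 0 passed with all 6 libraries (median 0.05), and 5 rose and 0 fell without siNS 3 (median 0.16).

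ERBB2 was at 5636, 5919 and 5743 CPM under siFOXA1 and at 6989, 7136 and 7296 CPM under siNS. The groups did not overlap, and ERBB2 fell by 0.31 (0.08) with edgeR adjusted p = 0.0306. The call did not hold, with an adjusted p of up to 0.12 when 1 library was left out. Of 14 tested genes of the region around ERBB2, 2 rose (STAC2 and PPP1R1B) and 2 fell (MIEN1 and ORMDL3), with a median of -0.10 (3 and 4 without siNS 3). The calls of PPP1R1B and MIEN1 did not hold. EGFR, the receptor of EGF, was at 261, 237 and 249.7 CPM against 166, 168 and 89.2 CPM and rose by 0.82 (0.23), or by 0.57 without siNS 3, in a call that did not hold. EGF itself was at 21.4, 25.1 and 23.9 CPM against 59.0, 65.4 and 45.003 CPM and fell by 1.27 (0.16). ERBB3, the partner of ERBB2, differed by -0.22 (0.11) with all 6 libraries and did not pass, and by -0.32 without siNS 3 (edgeR adjusted p = 5.8e-07). Over the list of ERBB receptors and ligands 3 of 14 rose and 4 fell, or 3 and 7 without siNS 3.

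In the signalling lists the counts without siNS 3 follow in brackets. Of 19 AP-1 and EGR early genes 7 rose and 0 fell (8 and 1), with EGR1 up by 1.11 (0.17). Of 17 Notch genes 3 rose and 2 fell (7 and 3), with the receptor NOTCH1 up by 1.31 (0.15) and its ligand JAG1 by 1.42 (0.24). Of 27 TGF-beta and BMP genes 3 rose and 5 fell (6 and 10), with the ligand TGFB3 down by 1.08 (0.10), from 191 to 214 CPM to 91.1 to 97.9 CPM. BMP2 rose by 2.67 (0.36), from 16 reads in the siNS libraries together to 109 in the siFOXA1 libraries. Of 23 Wnt genes 4 rose and 2 fell (7 and 6), with the repressor TCF7L1 down by 2.27 (0.27). Of 21 Hippo genes 3 rose and 2 fell (6 and 7), and TEAD1 rose by 1.70 (0.29). Of 17 MAPK feedback genes 3 rose and 4 fell (3 and 7), with the phosphatase DUSP5 down by 1.09 (0.12). In the inflammatory lists the share risen was near that over all genes. Of 21 interferon-stimulated genes 2 rose and 0 fell (3 and 2 without siNS 3), with a median of -0.02. Of 16 antigen presentation genes 2 rose and 1 fell (5 and 3 without siNS 3), with a median of -0.21. Of 20 cytokine and NF-kB genes 2 rose and 0 fell (3 and 3 without siNS 3), with a median of 0.01. Among them TNFAIP2 was up by 1.72 (0.11).

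Markers of breast epithelium dominated every library, with the 10 markers summing to 18715 to 19481 CPM under siFOXA1 and 21029 to 26393 CPM under siNS. Of the 9 tested 3 fell and 0 rose, but 5 fell and 4 rose without siNS 3. Fibroblast markers summed to 15.1 to 21.2 CPM against 21.6 to 32.6 CPM, with LUM, PDGFRA and FAP not listed. Endothelial markers summed to 18.1 to 21.8 CPM against 18.6 to 22.9 CPM, with PECAM1, KDR and CLDN5 not listed, and VWF fell by 2.30 (0.34) from 3.16 to 4.96 CPM to 0.543 to 1.16 CPM. Leukocyte markers summed to 38.5 to 41.3 CPM against 18.7 to 21.7 CPM. CSF1R, at 36.6 to 39.3 CPM against 17.8 to 21.5 CPM, made up most of that sum and rose by 0.94 (0.11), while CD3D, MS4A1 and CD68 were not listed. The part of these sums in the results was not tested, and in bulk RNA fewer cells of a type and less RNA per cell cannot be told apart.

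The response in SKBR3 was then set against that in the other lines in 1 fit of 18 libraries. FOXA1 itself changed by -2.25 in SKBR3, -2.17 in T47D and -2.48 in MDA-MB-453, and neither difference from SKBR3 passed (edgeR adjusted p = 0.65 and 0.18). The effect of silencing differed between SKBR3 and T47D for 3900 of 16138 genes (24.2%) and between SKBR3 and MDA-MB-453 for 3498 (21.7%). Against T47D the effect was higher in SKBR3 for 1807 genes and lower for 2093. Against MDA-MB-453 it was higher for 1578 and lower for 1920. Without siNS 3 the genes that differed numbered 4929 against T47D and 4783 against MDA-MB-453. The counts by direction below are read against these numbers.

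The effect on mitotic genes was higher in SKBR3 than in either other line. In this fit the median log2 fold change of the 35 mitotic genes was 1.02 in SKBR3, -0.76 in T47D and -0.33 in MDA-MB-453, and the effect in SKBR3 was higher than in T47D for 35 of 35 and higher than in MDA-MB-453 for 35 of 35. Without siNS 3 both counts were again 35. TOP2A changed by 1.68 (0.16) in SKBR3, -0.84 (0.15) in T47D and -0.25 (0.15) in MDA-MB-453, and the differences of 2.52 (0.22) and 1.93 (0.22) had edgeR adjusted p of 7.3e-08 and 2.13e-06. MKI67 changed by 1.18 (0.20), -0.95 (0.20) and -0.35 (0.19) in the same order. Of 40 replication genes 38 were higher in SKBR3 than in T47D and 33 higher than in MDA-MB-453, with medians of 0.76, -0.59 and -0.24, and 0 were lower. Without siNS 3 the counts were 39 and 40 higher and 0 lower. E2F7 changed by 2.53 (0.21) in SKBR3, 0.08 (0.19) in T47D and 0.14 (0.21) in MDA-MB-453.

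The effect on cholesterol genes was mostly lower in SKBR3 than in MDA-MB-453. Their medians were -0.65 in SKBR3, -0.23 in T47D and 0.10 in MDA-MB-453. The effect in SKBR3 was lower for 18 of 24 genes and higher for 1 against MDA-MB-453, and lower for 9 and higher for 0 against T47D. Without siNS 3 it was lower for 19 and higher for 1 against MDA-MB-453, and lower for 9 and higher for 1 against T47D. STARD4, a sterol carrier, changed by -0.97 (0.14), 0.10 (0.14) and 1.13 (0.18) in SKBR3, T47D and MDA-MB-453. Cytosolic ribosomal protein genes had medians of -0.41, 0.30 and 0.29, and 52 of 68 were lower in SKBR3 than in T47D, or 50 without siNS 3. The 22 basal genes had medians of 0.96, 1.23 and 2.62, with 6 lower and 0 higher in SKBR3 than in T47D and 9 lower and 1 higher than in MDA-MB-453. Without siNS 3 the counts were 6 lower and 2 higher against T47D and 10 lower and 1 higher against MDA-MB-453. KRT16 changed by 2.09 (0.25) in SKBR3, 4.44 (0.34) in T47D and 7.87 (0.38) in MDA-MB-453. Its mean under siNS was 4.87, 0.603 and 0.201 CPM in these lines, the last 2 near the floor. Under siFOXA1 it was 20.6, 13.4 and 51.5 CPM, so the silenced level in SKBR3 was above that in T47D. The interferon-stimulated genes had medians of -0.21, -1.57 and -0.13. Of 40 in this fit 14 were higher in SKBR3 than in T47D and 0 lower, or 12 and 0 without siNS 3. Only 21 interferon-stimulated genes had enough reads to be tested in the SKBR3 libraries alone. The 40 were filtered on all 18 libraries, so they include genes with few reads in SKBR3.

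Single genes of the luminal programme were mixed. ERBB2 changed by -0.33 (0.07) in SKBR3, 0.66 (0.07) in T47D and 0.43 (0.07) in MDA-MB-453, and both differences from SKBR3 passed (edgeR adjusted p = 3.5e-07 and 9.6e-06). SOX9 changed by 1.30 (0.11), -0.41 (0.10) and 2.73 (0.11). XBP1 changed by -1.54 (0.09), -0.997 (0.09) and -1.42 (0.09), AGR2 by -1.93, -2.14 and -2.69 and RND1 by -3.18, -3.11 and -2.98. XBP1 differed from T47D (difference -0.55, edgeR adjusted p = 0.0027) and did not pass against MDA-MB-453 (-0.12, edgeR adjusted p = 0.544). AGR2 differed from MDA-MB-453 (0.77, edgeR adjusted p = 0.0033) and did not pass against T47D (0.22, edgeR adjusted p = 0.412). For RND1 the differences of -0.07 from T47D and -0.20 from MDA-MB-453 did not pass. Of the largest rises, COL5A2 changed by 3.41 in SKBR3, -0.03 in T47D and 0.78 in MDA-MB-453 (edgeR adjusted p of the differences 5.2e-09 and 4.9e-07), and PDGFA by 4.26, 1.51 and 0.60 (1.4e-06 and 2.1e-08). The mean of PDGFA under siNS was 0.353, 5.81 and 14.4 CPM in the 3 lines. Under siFOXA1 it was 6.89, 16.5 and 21.9 CPM, so SKBR3 had the largest fold change and the lowest level. The effect on SLC16A1 was also higher in SKBR3 than in either other line. ANXA1 went the other way, at 3.68 in SKBR3, 4.87 in T47D and 6.81 in MDA-MB-453 (edgeR adjusted p of the differences 0.0026 and 9.8e-07). CABP7 and SULT1E1 were higher in SKBR3 than in MDA-MB-453 and did not pass against T47D. For KRT5, STAC2, KRT9 and AQP1 neither difference passed, with siNS levels near the floor in both other lines.

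**Figure D4:**
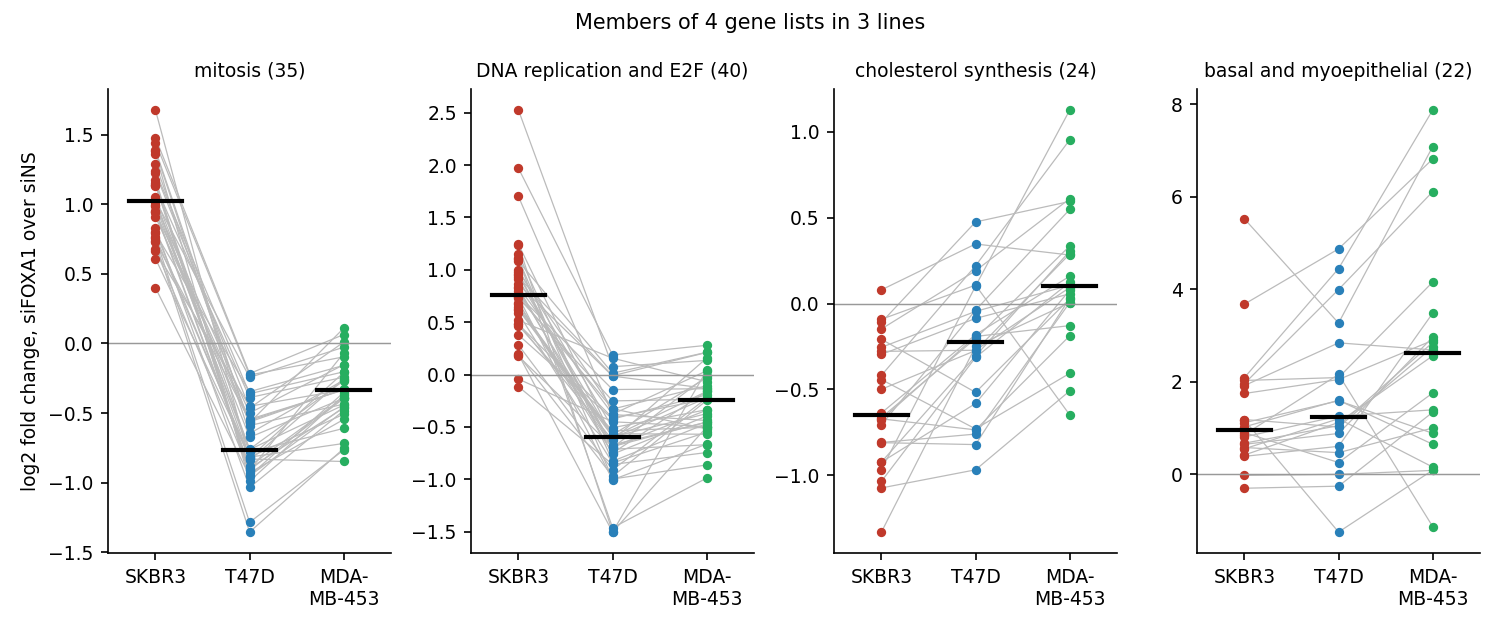
Log2 fold change of siFOXA1 over siNS in SKBR3, T47D and MDA-MB-453 for the members of 4 gene lists, with the number of members above each panel, thin lines joining each gene and bars at the medians. The vertical scale differs between panels, and the mitosis medians are 1.02, -0.76 and -0.33.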

How the data were processed

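RNA was sequenced from SKBR3, T47D and MDA-MB-453 cells 48 h after reverse transfection. The authors deposited raw read counts per gene, with FPKM values and a listed gene length beside them, and the submitters' processing notes name STAR 2.5, HTSeq 0.6.1, DESeq2 and hg19 without settings or strand use. Counts from the deposited tables were tested with edgeR 4.0.16 (quasi-likelihood F test, TMM factors, low-count filter, Benjamini-Hochberg adjusted p under 0.05). Levels are CPM with TMM factors, and deposited FPKM values serve only for levels between genes. Each SE is the log2 fold change over the root of F. Line differences come from 1 fit of 18 libraries with a line by siRNA term. The alternatives were RLE factors, no filter, DESeq2 1.42.0, limma 3.58.1 with quality weights, 9 SKBR3 libraries, a replicate block, each library left out, and, chosen after seeing the data, removal of a length trend. The code was tested on simulated counts.

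Named genes were the target, the 12 largest rises and 12 largest falls among protein-coding genes with a held call, a mean of at least 1 CPM and no overlap between groups, up to 5 called members of each list, a few receptors and cofactors, and the 8 genes with the smallest p for each line difference. Other genes, among them list members that did not pass, were chosen after their values were seen. The gene lists and tests were chosen with earlier results of these data known. Counting intervals cover counting error only. Promoter letters are from RefSeq (GRCh38.p14), and gene coordinates from the deposited tables (hg19). Some named genes are not reported here.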

Additional observations from a re-analysis of the deposited data

Results flagged for a closer look

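The effect of FOXA1 silencing in SKBR3 differed from that in another line for the genes below, each by the test of the difference itself (edgeR, Benjamini-Hochberg). They are the genes with the smallest p, so their sizes are selected.

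Against T47D, the difference was -2.76 for VTCN1, an inhibitor of T cells, which changed by -1.74 in SKBR3 and 1.02 in T47D (adjusted p = 3.13e-11). It was -2.84 for ABCC11, which changed by -4.02 in SKBR3 and -1.18 in T47D. For SYNPO, an actin-binding protein, it was -3.35, with -1.34 and 2.01. For PITPNM1, a lipid transfer protein, it was -2.79, with -0.75 and 2.03. E2F2, an E2F activator, differed by 2.74, with 1.24 in SKBR3 and -1.50 in T47D. TUBB2A, a tubulin with close paralogs, differed by -4.05, with -1.71 and 2.34. The transporter ABCC3 differed by -2.75, with -0.39 in SKBR3 and 2.36 in T47D. In the fit of the 6 SKBR3 libraries its fall did not pass (edgeR adjusted p = 0.0503). KIAA1324 differed by -2.66, with -1.18 and 1.48. The highest adjusted p of these 8 was 4.21e-10.

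Against MDA-MB-453, the difference was -3.23 for TMBIM1, which changed by -0.65 in SKBR3 and 2.58 in MDA-MB-453. It was 3.33 for UNC5B, a netrin receptor that changed by 3.14 in SKBR3 and -0.19 in MDA-MB-453. ASS1, of arginine synthesis, differed by -3.38, with 0.06 and 3.44. The ubiquitin ligase gene FBXO32 differed by -2.81, with 0.44 in SKBR3 and 3.25 in MDA-MB-453. RAB15 differed by -2.51, with 0.35 and 2.86, and the water and glycerol channel AQP3 by -3.44, with 0.72 and 4.16. The fitted effect of these 3 genes was thus a rise in both lines, smaller in SKBR3. NDRG1 differed by -3.42, with -1.66 and 1.76, and VTCN1 by -2.51, with -1.74 and 0.77. The highest adjusted p of these 8 was 6.64e-11.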

How the results depend on the processing

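The count of risen genes was 1439 with RLE factors, 1408 without a filter, 1654 with DESeq2 and 1409 with 9 SKBR3 libraries, against 1490, and the count of fallen genes was 1341, 1218, 1535 and 1226, against 1256. With quality weights, which gave siNS 3 a weight of 0.0652, 3419 rose and 3254 fell. With the length trend removed, 1911 rose and 1998 fell. Leaving out 1 library gave 745 to 3358 risen and 516 to 3317 fallen genes, highest without siNS 3 and lowest without a siFOXA1 library. The deviations of siFOXA1 and siNS libraries with the same replicate number had r of 0.0917, -0.0161 and -0.00187. The siNS deviations are taken from a group mean that includes siNS 3, so these values cannot show whether the replicates were paired. The replicate block gave 1212 risen and 898 fallen genes. Of 157 named genes 108 kept their direction and side of the threshold under every alternative run and 49 did not. TLE2 turned to -0.0480 without siNS 1 and was 0.240 without siNS 3, and TLE3 turned to -0.116 with the length trend removed, and neither passed with all 6 libraries. The cause of these shifts was not tested.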

Other observations

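Further genes, chosen after their values were seen, changed with a call that held. The netrin receptor genes UNC5A and UNC5B both rose, by 3.09 (0.16) and 3.16 (0.12), with UNC5A at 12.8, 12.4 and 13.5 CPM under siFOXA1 and 1.40, 1.40 and 1.72 CPM under siNS. GABRE and GABRQ, which encode GABA receptor subunits and both lie on chromosome X, rose by 2.25 (0.19) and 2.72 (0.22). LMNB1, a protein of the nuclear lamina, rose by 2.91 (0.11), and the carboxypeptidase gene CPA4 by 3.11 (0.12). CASP14, a caspase of cornifying skin, rose by 2.498 (0.13) and the adhesion gene L1CAM by 1.72 (0.09). The long noncoding RNA NEAT1 rose by 1.76 (0.15).

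Among the falls, TRGC1, a T cell receptor gamma constant gene with the close paralog TRGC2, fell by 5.57 (0.29). SOCS2, a feedback inhibitor of cytokine receptors, fell by 3.05 (0.24). BCAS1, a gene amplified in some breast cancers, fell by 1.81 (0.09) from 455 to 518 CPM to 137 to 142 CPM. PREX1, a Rac activator, fell by 1.69 (0.09) and the apolipoprotein gene APOD by 1.79 (0.14). DSCAM-AS1, an antisense RNA, fell by 1.32 (0.15), and without a stated strand its reads and those of its sense gene cannot be told apart.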
